A study of Mus musculus with 72 samples.

Results

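The comparison described here set the cerebellum of 3 Ts1Cje mice against the cerebellum of 3 disomic littermates at postnatal day (P) 30, and its members were the 6 arrays labelled P30 cerebellum among the 72 arrays of the series. Ts1Cje mice carry an extra copy of the part of mouse chromosome 16 (MMU16) from *Sod1* to *Znf295*, now named *Zbtb21*, translocated onto MMU12, with a partial monosomy of MMU12 at the junction. They are used as a model of Down syndrome because the segment is syntenic to human chromosome 21. All mice came from matings of Ts1Cje males with C57BL/6 females, were genotyped by PCR for the neomycin cassette, and were labelled female, and the disomic mice were labelled C57BL/6. Total RNA of 1 cerebellum per mouse was hybridised to 1 Affymetrix whole-genome mouse array, and the cerebral cortex and hippocampus of the mice were hybridised to arrays of their own. The question was which genes differed between genotypes in this region at this age, across all 45101 probe sets.

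A dose effect is the simplest consequence of an extra chromosome segment: a gene present in 3 copies instead of 2 would be transcribed 1.5-fold, or 0.58 on the log2 scale, if nothing compensated. The cerebellar cortex at this age is built of densely packed granule neurons, the large Purkinje cells that carry its output, inhibitory interneurons and Bergmann glia, and cerebellar size and granule neuron number are known to be reduced in mouse models of Down syndrome. The tissue matched its label. *Gabra6*, a GABA-A receptor subunit of mature granule neurons, lay at 12.58 to 12.63 (log2) in Ts1Cje mice and at 12.53 to 12.58 in disomic mice, and *Pcp2*, a Purkinje cell gene, lay at 13.12 to 14.06 in Ts1Cje mice and at 13.68 to 14.09 in disomic mice. On the axis from the P30 hippocampal mean (0) to the mean of these same 6 arrays (1), they lay between 0.957 and 1.02. Their average on it is 1 by construction, so the axis shows only their spread and is no check of the label. *Xist*, the RNA that coats the silenced X in females, lay at 2.11 to 2.28 in Ts1Cje mice and at 2.07 to 2.38 in disomic mice. These values lay under the array medians of 3.23 to 3.28. The Y-linked *Eif2s3y* lay above the medians (mean of its probe sets 5.95 to 6.15 in Ts1Cje mice and 5.57 to 5.76 in disomic mice). Both genes go against the female label of all the mice, and their sex was not settled here. In bulk tissue a difference in RNA per cell and a difference in the number of cells cannot be told apart.

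Values were log2 expression levels made with gcRMA, and a probe set was called when its moderated t (limma, fitted to all 72 arrays) was at least 4 or at most -4 and its Benjamini-Hochberg adjusted p over all probe sets was at most 0.05. Differences are given as Ts1Cje minus disomic. Of the 45101 probe sets, 14 were called (0.0310%), 12 of them higher in Ts1Cje mice (0.0266%) and 2 lower (0.00443%). Of the 14, 7 belonged to triplicated genes: *Tmem50b*, *Mrps6*, *Atp5o*, *Son*, *Pigp*, *Vps26c* and *Donson*. *Dnah11* and *Itgb8* belonged to the monosomic segment of MMU12. *Erdr1*, *Scai* and *Eml3* lay in neither segment, and of the last 2 probe sets, 1 had no symbol in the annotation and 1 had several. In each of the 14, the arrays of the groups did not overlap, which was true of 4.02% of all probe sets for higher and 6.79% for lower values in Ts1Cje mice. The count rested on single mice: without Ts1Cje replicate 3 it was 2, without disomic replicate 3 it was 5, without disomic replicate 2 it was 8 and without Ts1Cje replicate 1 it was 9. *Dnah11* and *Tmem50b* were called whichever of the 6 arrays was left out.

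**Figure D1:**
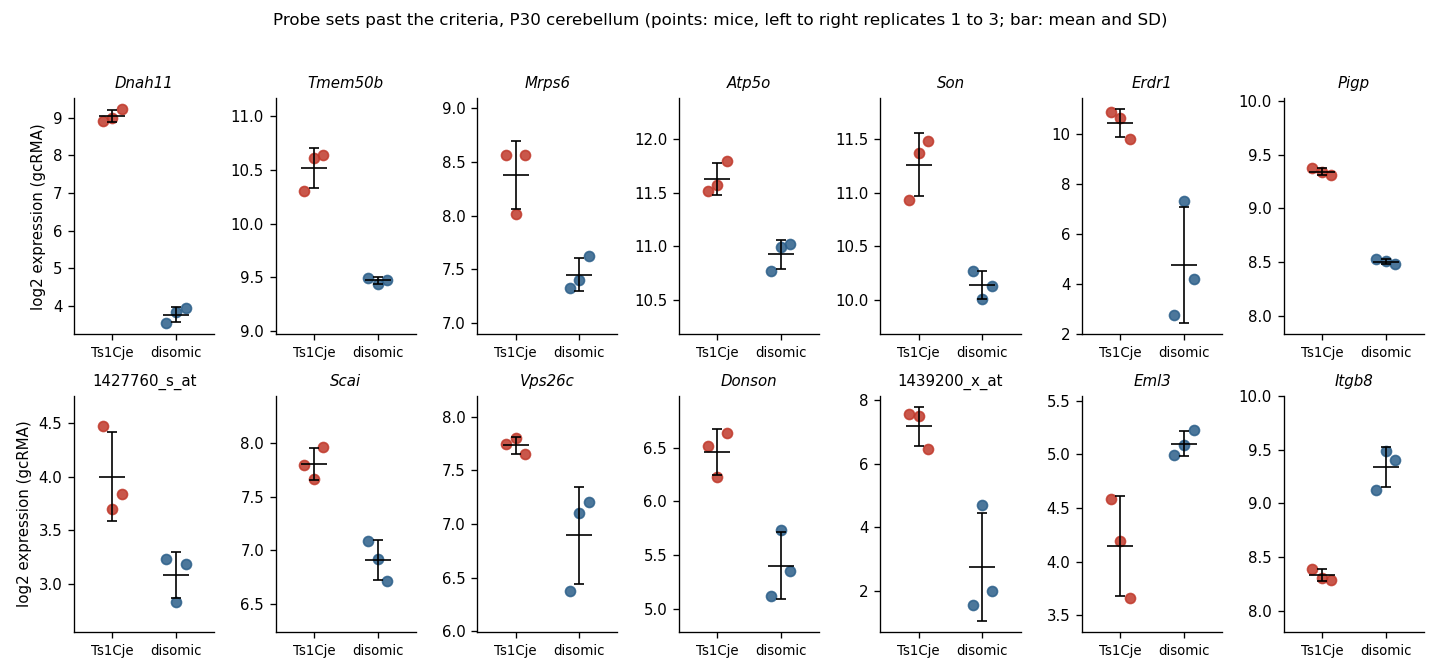
Log2 expression of the 14 called probe sets in each of the 6 mice, Ts1Cje left and disomic right, with the mean and SD of each group (n = 3) as bars; vertical scales differ. No Ts1Cje point overlaps the disomic points of its panel, and the spread is widest for *Erdr1* in disomic mice (2.76 to 7.34).

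The promoters of 3 of the called genes are shown, as the gene called whichever mouse was left out in the triplicated segment (*Tmem50b*) and the genes of the monosomic segment that differed in opposite directions (*Dnah11*, *Itgb8*). Each is the RefSeq window of 250 bases before to 50 after the gene's start (GRCm38.p6), read 5′ to 3′ on the gene's strand, which is the minus strand for all 3. Capitals mark the GC box GGGCGG, the CCAAT box, the TATA box TATAAA and the E-box CACGTG on either strand, where occurrences may overlap.
Tmem50b (chr16:91597631-91597930): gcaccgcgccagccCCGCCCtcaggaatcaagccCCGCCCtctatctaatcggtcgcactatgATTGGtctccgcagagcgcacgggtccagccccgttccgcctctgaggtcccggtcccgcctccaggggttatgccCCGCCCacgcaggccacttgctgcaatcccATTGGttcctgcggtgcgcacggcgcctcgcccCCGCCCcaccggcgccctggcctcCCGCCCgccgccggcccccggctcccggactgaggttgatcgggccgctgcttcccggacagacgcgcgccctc
Dnah11 (chr12:118198994-118199293): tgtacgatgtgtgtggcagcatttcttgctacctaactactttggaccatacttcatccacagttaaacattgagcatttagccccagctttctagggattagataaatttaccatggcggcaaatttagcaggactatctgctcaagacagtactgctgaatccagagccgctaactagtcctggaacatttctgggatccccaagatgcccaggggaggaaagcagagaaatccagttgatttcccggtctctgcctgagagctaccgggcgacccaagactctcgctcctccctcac
Itgb8 (chr12:119238227-119238526): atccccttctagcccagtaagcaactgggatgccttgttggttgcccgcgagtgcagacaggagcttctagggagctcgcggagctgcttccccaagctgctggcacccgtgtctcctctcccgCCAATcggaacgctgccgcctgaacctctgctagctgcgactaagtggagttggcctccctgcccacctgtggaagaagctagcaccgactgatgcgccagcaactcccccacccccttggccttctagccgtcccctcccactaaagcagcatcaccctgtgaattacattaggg
The *Tmem50b* window held 5 GC boxes and 2 CCAAT boxes, the *Itgb8* window 1 CCAAT box, and the *Dnah11* window none of the 4 motifs. A GC box was found in 35.7% of all 32851 promoter windows, a CCAAT box in 37.4%, a TATA box in 13.6% and an E-box in 7.15%. Among the 11 called genes with an entry, 6 held a GC box in any of their windows and 5 a CCAAT box. The GC content was 73.0% for *Tmem50b*, 49.0% for *Dnah11* and 60.7% for *Itgb8*, beside a median of 52.7% over all windows. A match of letters is a description of the window and no evidence of binding.

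The triplicated segment was the most evident pattern. *Tmem50b*, which encodes a membrane protein of the endoplasmic reticulum and Golgi, lay at 10.31, 10.61 and 10.64 in Ts1Cje mice and at 9.50, 9.44 and 9.48 in disomic mice. It was higher by 1.05 (standard error 0.162, 2.07-fold, adjusted p = 0.000776). *Pigp*, a subunit of the enzyme that begins GPI anchor synthesis, varied least among mice, with 9.37, 9.34 and 9.31 in Ts1Cje mice and 8.53, 8.51 and 8.48 in disomic mice, a difference of 0.84 (standard error 0.159, adjusted p = 0.0147). *Vps26c*, a subunit of the retriever complex of endosomal recycling that the array annotation lists under its older symbol *Dscr3*, had 7.75, 7.80 and 7.65 in Ts1Cje mice and 6.38, 7.10 and 7.20 in disomic mice, where replicate 1 was the lowest, and its difference of 0.84 had an adjusted p of 0.0179. With *Tmem50b*, *Pigp* and *Vps26c*, 3 of the 11 genes of membrane traffic and protein handling in the segment were called. With 1 probe set per gene, 0.0440% of all genes and 4 of the 77 measured triplicated genes were called. Of the 11, 10 were higher in every Ts1Cje mouse than in every disomic mouse, against 4.49% of all genes and 48.1% of the triplicated genes.

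*Son*, which encodes a splicing cofactor of nuclear speckles, had 10.93, 11.37 and 11.48 in Ts1Cje mice and 10.27, 10.01 and 10.13 in disomic mice at the called probe set (difference 1.12, standard error 0.206, adjusted p = 0.0107). Its 6 other probe sets had differences of 0.67 to 1.49, none of them called. *Donson*, which stabilises replication forks, had 6.52, 6.22 and 6.64 in Ts1Cje mice and 5.12, 5.73 and 5.35 in disomic mice (difference 1.06, standard error 0.208, adjusted p = 0.0181), while a second probe set, under the array median on all 6 arrays, gave -0.07. Of the 20 triplicated genes of chromatin, transcription and RNA that were measured, *Donson* was the only one called at the probe set with the highest mean. Among the 20, 11 lay higher in every Ts1Cje mouse than in every disomic mouse (4.49% of all genes, 48.1% of the triplicated genes). In every Ts1Cje mouse 1 lay lower (7.01% of all genes, 2.6% of the triplicated genes). *Brwd1*, a bromodomain protein, and *Morc3*, a chromatin ATPase, had differences of 0.75 (adjusted p = 0.157) and 1.44 (adjusted p = 0.380) at their best-ranked probe sets without passing. *Olig1* and *Olig2*, transcription factors of the oligodendrocyte lineage, had differences of 0.29 and 0.20.

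The mitochondrial genes *Mrps6* and *Atp5o* were both called. *Mrps6*, of the small subunit of the mitochondrial ribosome, had 8.56, 8.01 and 8.56 in Ts1Cje mice and 7.33, 7.40 and 7.63 in disomic mice, a difference of 0.93 (standard error 0.160, adjusted p = 0.00546), and 0.48 at its other probe set, which did not pass. *Atp5o*, a stalk subunit of the mitochondrial ATP synthase, had 11.52, 11.57 and 11.79 in Ts1Cje mice and 10.77, 10.99 and 11.02 in disomic mice, a difference of 0.70 (standard error 0.123, adjusted p = 0.00546), and 0.74 at its other probe set (adjusted p = 0.0536). The 44 other measured genes of oxidative phosphorylation had a median difference of -0.03, with none called. In every Ts1Cje mouse 1 of them was higher than in every disomic mouse (2.27%, against 4.49% of all genes) and 8 were lower (18.2%, against 7.01% of all genes). Those 8, *Sdha*, *Cyc1*, *Cox5b*, *Cox6a1*, *Ndufa1*, *Ndufb9*, *Ndufv3* and *Atp5g3*, had differences of -0.15 to -0.06, and were chosen for naming after their values were seen. *Cryzl1*, a quinone oxidoreductase homologue, and *Slc5a3*, the myo-inositol transporter, did not pass. *Cryzl1* had a difference of 0.67 at its brightest probe set, and 1.03 (adjusted p = 0.262), 0.44 and 0.29 at the others. *Slc5a3* had 0.82 (adjusted p = 0.525) at its brightest.

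Across the segment, 77 genes were measured by 188 probe sets. With 1 probe set per gene, 4 of the 77 were called, against 0.0440% of all 18194 genes, and 37 of the 77 were higher in every Ts1Cje mouse than in every disomic mouse, against 4.49% of all genes. The median difference of the 77 genes was 0.33, and that of the 18117 other genes -0.03. Many of the 77 lay near the floor of the values. Among the 38 whose mean over the 6 arrays reached 5, 36 had a positive difference and 20 exceeded 0.58. Of these 38, 30 were higher in every Ts1Cje mouse than in every disomic mouse (6.08% of all genes with such a mean). None was lower in every Ts1Cje mouse (6.70% of all genes with such a mean). That mean includes the Ts1Cje arrays, which favours higher genes. *Clic6*, *B3galt5* and *Prdm15* reached 5 only through them, with disomic means of 4.29, 4.64 and 4.86, and count among the positive genes without overlap. Their median difference was 0.63, against -0.04 for the 7509 other genes with such a mean. Their mean level was 8.35, 8.24 and 8.17 in Ts1Cje mice and 7.56, 7.75 and 7.68 in disomic mice, so that the groups did not overlap. The median difference of each Ts1Cje mouse from the disomic mean was 0.70, 0.63 and 0.54.

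**Figure D2:**
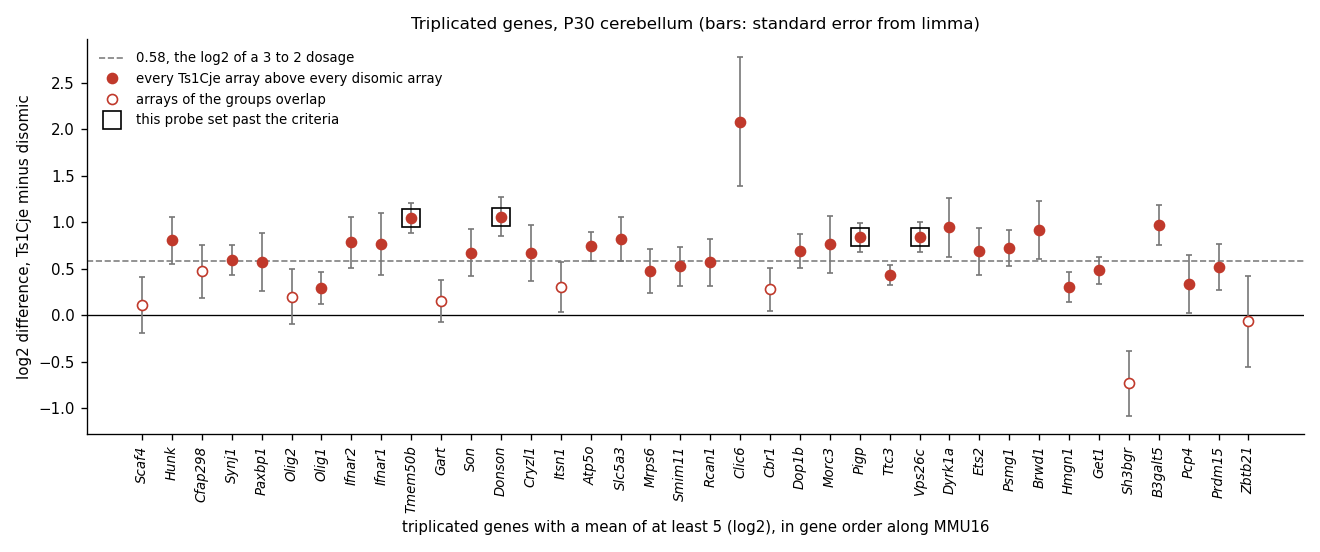
Log2 difference (Ts1Cje minus disomic) with its standard error for the 38 genes of the segment whose mean reached 5, in gene order along MMU16, 1 probe set per gene; filled points mark genes whose Ts1Cje arrays all lie above the disomic arrays and squares mark called probe sets. Of the 38 points, 20 lie above the dashed line at 0.58, and the genes at the ends, *Scaf4* (0.11) and *Zbtb21* (-0.07), lie near 0. *Clic6* (2.08, with a disomic mean of 4.29) is highest and *Sh3bgr* (-0.73) lowest.

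Other triplicated genes of known function did not pass the criteria and are given as values. *B3galt5*, a galactosyltransferase of glycolipid synthesis, came closest after *Atp5o*, with 5.54, 5.66 and 5.63 in Ts1Cje mice and 4.78, 4.76 and 4.39 in disomic mice (difference 0.97, adjusted p = 0.0935). *Dyrk1a*, the kinase that phosphorylates NFAT, had 9.04, 8.87 and 9.08 in Ts1Cje mice and 8.32, 7.93 and 7.89 in disomic mice (difference 0.95, standard error 0.317, adjusted p = 0.832). *Rcan1*, an inhibitor of calcineurin, had a difference of 0.57. The other 17 measured members of the calcineurin and NFAT list had a median difference of -0.05. *Synj1*, the phosphatase that uncoats synaptic vesicles, had 11.15, 11.27 and 11.20 in Ts1Cje mice and 10.53, 10.63 and 10.67 in disomic mice (difference 0.60, adjusted p = 0.413), while the 25 members of the vesicle endocytosis list outside the segment had a median of -0.01. *Pcp4*, a calmodulin regulator abundant in Purkinje cells, had 13.35, 13.38 and 13.24 in Ts1Cje mice and 12.95, 12.99 and 13.03 in disomic mice, a difference of 0.33 with no overlap.

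The 4 receptor chains of the segment, which bind interferons and interleukin 10, all had positive differences. *Ifnar1* had 7.45, 6.93 and 6.36 in Ts1Cje mice and 6.16, 6.11 and 6.18 in disomic mice (difference 0.76), and *Ifnar2* had 6.22, 5.44 and 5.78 in Ts1Cje mice and 5.08, 4.92 and 5.09 in disomic mice (difference 0.79, adjusted p = 0.888). *Il10rb* (difference 0.76) also did not overlap between groups, *Ifngr2* (difference 1.15, standard error 0.789) overlapped, and none of the 4 was called. The *Ifngr2* probe set had a mean of only 4.15 over the 6 arrays. At another *Ifngr2* probe set the paper lists a smaller difference for the P30 cerebellum. Outside the segment the 15 other measured genes of interferon receptor signalling had a median difference of -0.04. The 28 interferon-stimulated genes outside it had a median of 0.01, with none called, 2 higher (4.49% of all genes) and 1 lower (7.01% of all genes) in every Ts1Cje mouse than in every disomic mouse. Of the 30 genes of that list, 15 had a mean under the array medians. The 6 with a mean of at least 5 had a median difference of 0.32, and 5 of them were positive, beside -0.04 over all genes with such a mean. *B2m*, the light chain of MHC class I, had 9.84, 10.17 and 9.90 in Ts1Cje mice and 9.19, 9.49 and 9.33 in disomic mice (difference 0.64). *H2-K1*, a heavy chain of MHC class I, had 8.19 to 8.34 in Ts1Cje mice and 7.88 to 8.11 in disomic mice (difference 0.28), at a probe set whose probes can match related heavy chains. These were the 2 genes higher throughout. *Ifi27*, an interferon-induced mitochondrial protein, had 6.49, 7.28 and 7.15 in Ts1Cje mice and 5.96, 6.57 and 6.16 in disomic mice, where the groups overlapped (difference 0.74).

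The monosomic segment of MMU12 held the probe set with the largest moderated t of all, 22.5 for *Dnah11*. *Dnah11*, a dynein heavy chain of motile cilia, had 8.91, 8.99 and 9.23 in Ts1Cje mice and 3.54, 3.84 and 3.94 in disomic mice, just above the array medians of 3.23 to 3.28. It was higher by 5.27 (standard error 0.234, adjusted p = 1.35e-23), 38.6-fold, a size that rests on a disomic level near the array median. *Itgb8*, the integrin β8 chain, which pairs with the αv chain to activate TGF-β, had 8.39, 8.31 and 8.29 in Ts1Cje mice and 9.13, 9.48 and 9.41 in disomic mice. It was lower by -1.01 (standard error 0.176, adjusted p = 0.00546), that is 2.01-fold lower in Ts1Cje mice. *Sp4*, a transcription factor of neurons, had 6.53, 6.66 and 6.20 in Ts1Cje mice and 7.15, 8.23 and 8.31 in disomic mice (difference -1.44, adjusted p = 0.573), and *Tmem196* had 2.79, 2.60 and 2.90 in Ts1Cje mice and 3.03, 4.11 and 3.44 in disomic mice. *Sp8* and *Macc1* lay under the array medians in both groups. Thus 3 of the 6 measured genes were lower in every Ts1Cje mouse than in every disomic mouse, against 7.01% of all genes.

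*Erdr1*, the erythroid differentiation regulator, which the annotation places on chromosome X, had the largest fitted difference and the largest spread. It lay at 10.91, 10.64 and 9.82 in Ts1Cje mice and at 2.76, 7.34 and 4.19 in disomic mice, a difference of 5.69 (standard error 1.07, adjusted p = 0.0147). Disomic replicate 1 lay under the array median, so the size of the difference is uncertain. The called probe set without a symbol in the annotation, which the paper lists under *Erdr1*, showed a like pattern. It lay at 7.55, 7.49 and 6.46 in Ts1Cje mice and 1.55, 4.70 and 2.00 in disomic mice (difference 4.42, adjusted p = 0.0331). The other probe set with the *Erdr1* symbol in the annotation lay at 2.52 to 2.78 in Ts1Cje mice and 2.57 to 2.64 in disomic mice, under the array median throughout. The other regions at this age, which by the methods came from the same mice, showed the same but add no further animals. In the P30 cerebral cortex *Erdr1* had 10.01, 10.28 and 9.60 in Ts1Cje mice and 3.75, 6.46 and 3.44 in disomic mice, and in the P30 hippocampus 10.18, 10.28 and 9.29 in Ts1Cje mice and 3.69, 6.05 and 3.60 in disomic mice. Disomic replicate 2 was the highest disomic array in each region. At other ages the cerebellum of both genotypes was high, with 11.24 to 11.41 in Ts1Cje mice and 10.59 to 11.34 in disomic mice at P1, and 7.89 to 9.50 in Ts1Cje mice and 8.66 to 10.64 in disomic mice at P15. At P84 *Erdr1* had 10.24, 10.46 and 9.54 in Ts1Cje mice and 10.54, 4.95 and 9.99 in disomic mice. The name of the called probe set marks probes that can match more than 1 transcript, so the assignment to *Erdr1* is uncertain. The *Erdr1* call held without disomic replicate 2 and was lost without any other single array (highest adjusted p = 0.195).

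**Figure D3:**
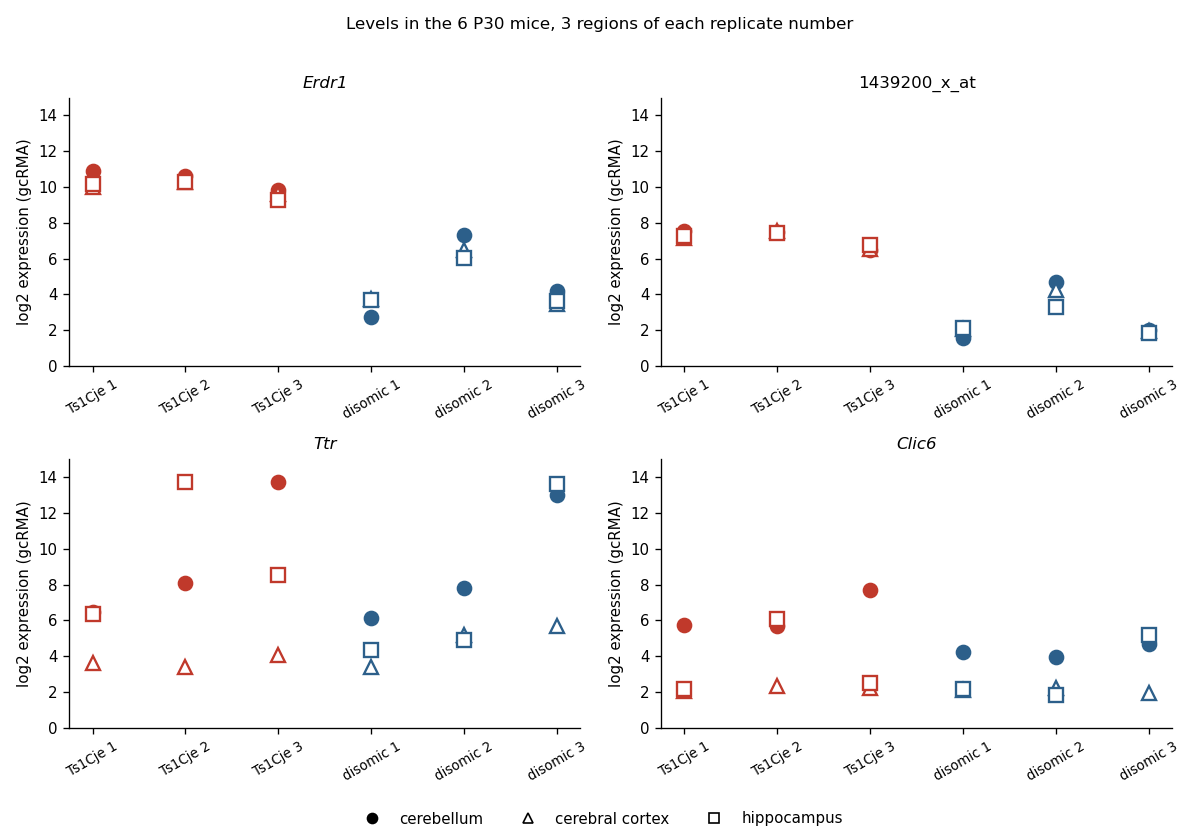
Log2 expression of *Erdr1*, the called probe set without a symbol, *Ttr* and *Clic6* in the 6 P30 mice, Ts1Cje left and disomic right, by region (filled circles cerebellum, triangles cerebral cortex, squares hippocampus). *Erdr1* is higher in every Ts1Cje array than in every disomic array of each region, whereas *Ttr* is high in the cerebellum of replicate 3 of both genotypes (13.72 and 13.02).

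*Scai* and *Eml3*, which lie outside both segments, were called in the P30 cerebellum alone among the 12 comparisons. *Scai*, a nuclear cofactor that restrains transcription through MRTF and SRF, had 7.80, 7.67 and 7.96 in Ts1Cje mice and 7.09, 6.92 and 6.72 in disomic mice (difference 0.90, standard error 0.175, adjusted p = 0.0179). Its 3 other probe sets had differences of 0.06, -0.22 and 0.02, so that the call rests on 1 of 4. *Eml3*, a microtubule-binding protein, had 4.58, 4.19 and 3.66 in Ts1Cje mice and 4.99, 5.08 and 5.23 in disomic mice (difference -0.95, standard error 0.187, adjusted p = 0.0179). In the other 11 comparisons of age and region *Scai* differed by -0.27 to 0.42 and *Eml3* by -0.27 to 0.29, and neither was called. The called probe set with several symbols had 4.47, 3.70 and 3.83 in Ts1Cje mice and 3.23, 2.83 and 3.18 in disomic mice, where each value lay under its array median, and it differed by -0.32 to 0.44 elsewhere.

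The differences of effects were tested in the same fit. Against the mean effect of P1, P15 and P84 in the cerebellum, no probe set was called (limma, 0.00%; 2893 had an unadjusted p under 0.05), and against the mean effect of the cerebral cortex and hippocampus at P30 none was called either (0.00%; 2288 with an unadjusted p under 0.05). *Scai* differed by 0.81 from the other ages (adjusted p = 0.518) and by 1.11 from the other regions (adjusted p = 0.162), and *Eml3* by -0.95 (adjusted p = 0.518) and -1.12 (adjusted p = 0.214). *Erdr1* differed by 5.27 from the other ages (adjusted p = 0.518) and by 0.25 from the other regions. The disomic replicate 3 arrays labelled P15 cerebellum and P15 hippocampus lay at each other's region, and 3 further disomic replicate 3 arrays outside this comparison were dim. All 5 enter the spread per probe set. Without them 50 probe sets were called in the P30 cerebellum, the 14 among them, with 1 probe set called against the other ages and 3 against the other regions.

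The 9 called genes of the triplicated and monosomic segments had differences of the same sign in all 11 other comparisons. *Dnah11* was called in all 11 (5.26 to 6.49), *Itgb8* in 8 (-1.41 to -0.58) and *Donson* in 8 (0.70 to 1.25). *Pigp* was called in 6 (0.34 to 1.22), *Mrps6* in 5 (0.50 to 1.02), *Tmem50b* in 4 (0.37 to 1.05), *Atp5o* in 4 (0.46 to 0.75), *Vps26c* in 3 (0.52 to 0.87) and *Son* in 1 (0.17 to 1.00). The share of all probe sets called in the cerebellum was 0.494% at P1, 0.0333% at P15 and 0.111% at P84. In the cerebral cortex it was 0.0111% at P1, 0.00222% at P15, 0.0133% at P30 and 0.0443% at P84, and in the hippocampus 0.0155%, 0.0554%, 0.0177% and 0.0710% at the same ages. *Erdr1* was called in the 2 other P30 regions, which came from the same mice.

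**Figure D4:**
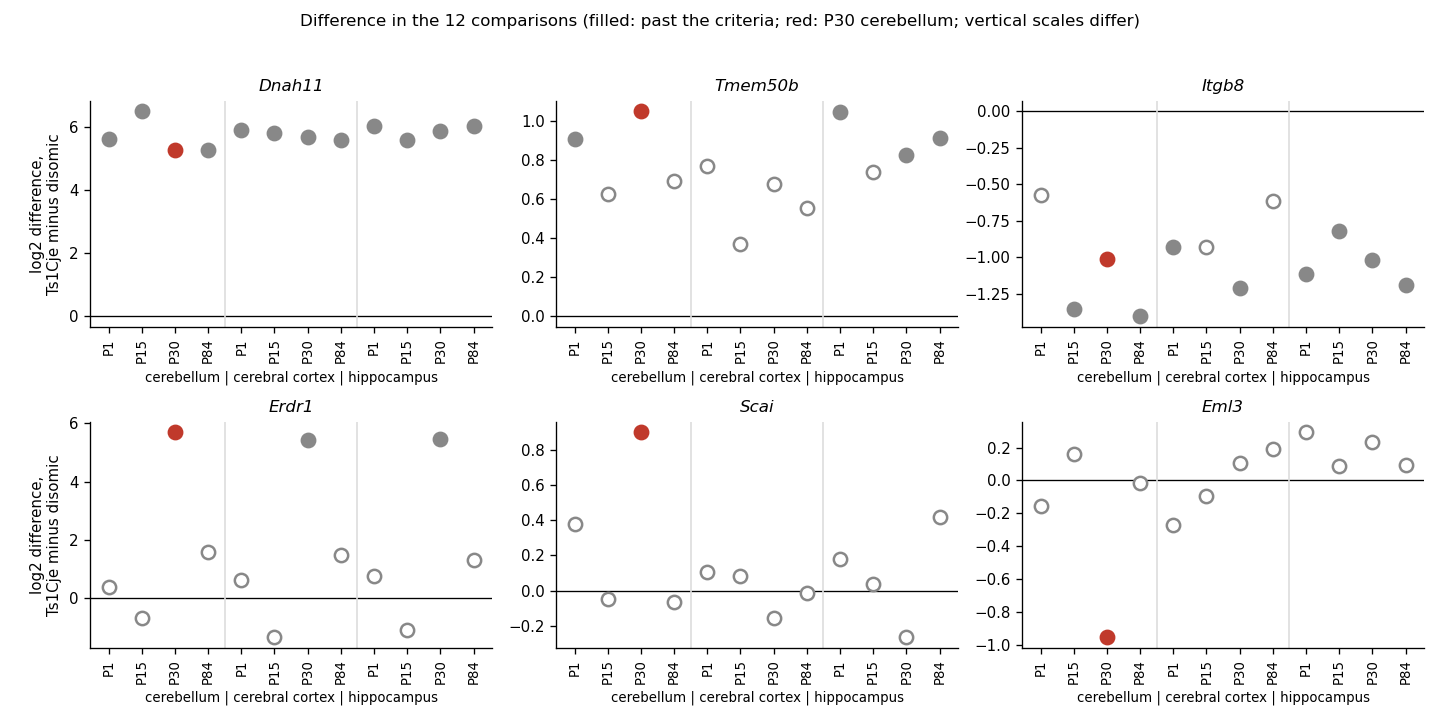
Log2 difference (Ts1Cje minus disomic) of 6 called genes in the 12 comparisons of age and region, with filled points past the criteria and the P30 cerebellum in red; vertical scales differ. *Dnah11*, *Tmem50b* and *Itgb8* keep their sign in all 12, and *Erdr1* stands out in all 3 regions of the same P30 mice. *Scai* and *Eml3* stand out only in the P30 cerebellum, a difference of effects that did not pass its own test.

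Among the next 12 probe sets on the higher side with 1 symbol and a mean of at least 5, none of which passed, 9 belonged to 8 triplicated genes. They were the second probe set of *Atp5o*, *B3galt5*, *Brwd1*, *Ttc3* (2 probe sets), *Synj1*, *Cryzl1*, *Itsn1* and *Morc3*. *Ttc3*, a ubiquitin ligase, had 12.18, 12.33 and 12.33 in Ts1Cje mice and 11.74, 11.94 and 11.87 in disomic mice (difference 0.43, adjusted p = 0.261). *Itsn1*, an endocytic scaffold, had a difference of 0.91 (adjusted p = 0.266) at this probe set. The 3 genes outside the segment were *Ankrd10* (difference 0.77, adjusted p = 0.144), *Tbc1d8*, a Rab GTPase-activating protein (difference 1.01, adjusted p = 0.265), and *Dnpep*, an aspartyl aminopeptidase (difference 0.60, adjusted p = 0.380). At the brightest probe sets of these genes the differences were 0.12 for *Ankrd10*, 0.03 for *Tbc1d8* and 0.01 for *Dnpep*.

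None of the 12 next probe sets on the lower side was triplicated, and none passed in the fit to all 72 arrays. *Slc16a11*, a monocarboxylate transporter, came closest, with 4.90, 4.82 and 4.98 in Ts1Cje mice and 5.49, 5.66 and 5.72 in disomic mice (difference -0.72, adjusted p = 0.0786). *Klk6*, a serine protease of oligodendrocytes, had 5.83, 4.66 and 5.81 in Ts1Cje mice and 6.39, 6.75 and 6.50 in disomic mice (difference -1.11, adjusted p = 0.157). *Nr4a2*, a nuclear receptor that responds to neuronal activity, had 5.22, 6.97 and 5.23 in Ts1Cje mice and 6.82, 9.08 and 8.11 in disomic mice, where the groups overlapped (difference -2.19, adjusted p = 0.452). *Smarcd3*, a subunit of the neural BAF chromatin complex, had 7.14, 6.93 and 6.78 in Ts1Cje mice and 7.72, 7.97 and 7.77 in disomic mice (difference -0.87, adjusted p = 0.479), and *Tef*, a clock-controlled transcription factor, had a difference of -1.06 (adjusted p = 0.480). The remaining 7 were *Cyp51*, *Sbsn*, *Ado*, *Nudc*, *Flot1*, *Pcbp2* and *Cox7a2l*, with differences of -1.20 to -0.55. At their brightest probe sets *Nr4a2* had a difference of -1.05, *Tef* of -0.54, *Cyp51* of -0.46 and *Cox7a2l* of -0.34, while *Ado* had -0.0002 and *Pcbp2* 0.22. Without the 2 displaced and 3 dim arrays, 9 of these 24 next-ranked probe sets were called, 5 higher and 4 lower. The 4 lower were *Slc16a11* (adjusted p = 0.000708), *Klk6* (adjusted p = 0.00138), *Smarcd3* (adjusted p = 0.00177) and *Nr4a2* (adjusted p = 0.0251). The 5 higher belonged to *B3galt5* (adjusted p = 0.0120), *Synj1*, *Atp5o*, *Morc3* and *Ttc3* (adjusted p = 0.0285 to 0.0444).

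Immediate early genes, whose transcription follows neuronal activity, had the lowest median of the lists outside the monosomic segment, -0.32 over 15 genes, beside -0.03 over all other genes, with none called and 2 lower in every Ts1Cje mouse than in every disomic mouse (13.3%, against 7.01% of all genes). *Fos* had 5.38, 8.41 and 6.35 in Ts1Cje mice and 7.53, 9.47 and 8.82 in disomic mice (difference -1.89, standard error 0.578, adjusted p = 0.661). *Egr1* had 7.55, 7.40 and 6.69 in Ts1Cje mice and 7.97, 8.76 and 8.18 in disomic mice (difference -1.09). The mice differed widely within a genotype, replicate 2 being the highest for *Fos* in both groups. Cholesterol synthesis had a median of -0.24 over 20 genes, 16 of them negative (10293 of all 18194 genes), with none called. Of the 20, 4 were lower in every Ts1Cje mouse than in every disomic mouse (7.01% of all genes), and none was higher (4.49% of all genes). *Cyp51*, the lanosterol demethylase, had 8.42, 8.58 and 7.94 in Ts1Cje mice and 8.67, 8.79 and 8.85 in disomic mice at its brightest probe set (difference -0.46, adjusted p = 0.646). Ts1Cje replicate 3 was the lowest array for the list, with a mean level of 6.86 beside 7.07 and 7.22 in the other Ts1Cje mice and 7.21 to 7.29 in disomic mice.

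None of the markers of the cerebellar cell types was called. Granule neuron genes had a median difference of 0.06 (19 genes), Purkinje cell genes 0.05 (18), interneuron genes 0.07 (17), Bergmann glia and astrocyte genes 0.02 (23), oligodendrocyte and myelin genes -0.05 (21), oligodendrocyte precursor genes outside the segment -0.18 (10), microglial genes -0.01 (17) and endothelial and pericyte genes -0.07 (19). Of the 10 oligodendrocyte precursor genes outside the segment, 7 had a negative difference. In every Ts1Cje mouse 3 of them were lower than in every disomic mouse (7.01% of all genes), and none was higher (4.49% of all genes). *Calb1*, the calcium buffer of Purkinje cells, had 12.92, 12.85 and 12.77 in Ts1Cje mice and 12.89, 12.63 and 12.73 in disomic mice. *Aldh1l1*, a folate enzyme of astrocytes, had 7.29, 6.59 and 6.98 in Ts1Cje mice and 7.53, 7.73 and 7.76 in disomic mice (difference -0.72, adjusted p = 0.774), and *Gria2*, an AMPA receptor subunit, had 10.55, 10.50 and 10.74 in Ts1Cje mice and 10.01, 10.26 and 10.17 in disomic mice (difference 0.45). The list of sonic hedgehog response and granule precursors had a median of -0.13 over 19 genes, with *Ptch1*, the hedgehog receptor, at 10.78 to 11.04 in Ts1Cje mice and 10.82 to 11.09 in disomic mice. Genes of neighbouring tissue had medians of -0.11 (forebrain, 19 genes), -0.0046 (brainstem and midbrain, 19), 0.01 (meninges and fibroblasts, 14) and -0.08 (blood, 6), with none called. These medians do not show single mice. Disomic replicate 2 had the highest forebrain mean level, 4.387 beside 3.934 to 4.125 in the other mice. Its summed linear level of brainstem and midbrain genes was 592, beside 185 to 323. Its granule neuron mean level was the lowest, 10.45 beside 10.7 to 10.97. The part of neighbouring tissue in this array was not tested.

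**Figure D5:**
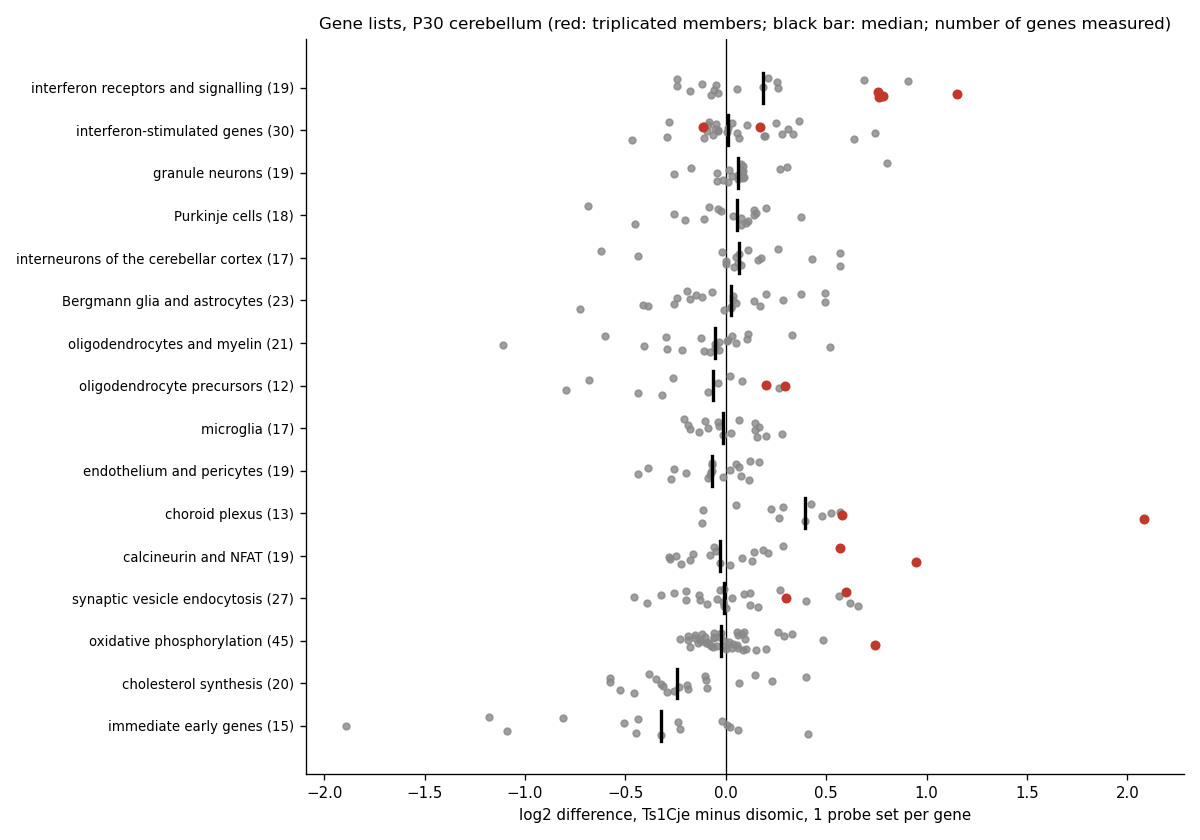
Log2 difference (Ts1Cje minus disomic) of each measured gene in 16 lists, 1 probe set per gene, with triplicated members in red and the median of each list as a black bar. Medians of the cell type lists lie near 0, those of immediate early genes (-0.32) and cholesterol synthesis (-0.24) lie lower, and that of the choroid plexus (0.40) lies higher.

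Choroid plexus genes differed between single mice. *Ttr*, the transthyretin that choroid plexus epithelium secretes, had 6.45, 8.11 and 13.72 in Ts1Cje mice and 6.15, 7.82 and 13.02 in disomic mice, so that replicate 3 was far above the others in both groups. The summed linear level of the 13 measured genes was 208, 395 and 13800 in Ts1Cje mice and 149, 316 and 8440 in disomic mice, and 10 of the 13 had a mean under the array medians. *Clic6*, a triplicated chloride channel gene expressed in that epithelium, had 5.75, 5.68 and 7.68 in Ts1Cje mice and 4.25, 3.95 and 4.66 in disomic mice (difference 2.08, standard error 0.692, adjusted p = 0.825), and its difference was 1.43 without Ts1Cje replicate 3. *Kcne2*, a triplicated potassium channel subunit of the same epithelium, had 2.27, 2.74 and 4.36 in Ts1Cje mice and 2.37, 2.44 and 2.82 in disomic mice. The part of choroid plexus tissue in these differences was not tested. The 14 calls included no member of the list. Without Ts1Cje replicate 3, 2 of the 14 remained called, *Dnah11* and *Tmem50b*, and without any other single array 5 to 9 of the 14 remained. Whether these losses relate to choroid plexus signal was not tested.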

How the data were processed

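Total RNA of the P30 cerebellum of 3 Ts1Cje and 3 disomic mice was measured on Affymetrix whole-genome mouse arrays, within a series of 72 arrays in 24 groups of 3. The deposited log2 values were made by the authors with gcRMA, named in the submitters' processing notes (version and settings not given in the sources used here), which corrects probes for background by base composition, normalizes between arrays and summarises each probe set. They were used as deposited, with no filter. gcRMA compresses differences near the floor, and 3 mice per group limit the precision. Groups came from the labels.

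Of 45101 probe sets, 34958 had 1 gene symbol, 932 several and 9211 none, and 34754 were matched by gene identifier to the GRCm38.p6 gene table, used for names and gene order only. The triplicated genes were those after *Sod1* up to *Zbtb21*. Where 1 value per gene was needed, the brightest probe set over the 6 arrays was taken. limma 3.58.1 (lmFit, eBayes; R 4.3.3) fitted 24 group means to all arrays, with 48 residual degrees of freedom and 51.27 in total, and the thresholds follow the methods. Differences of effects were contrasts of the same fit. In simulated P30 cerebellum arrays (45101 probe sets), the fit recovered 8.96% of 67 probe sets altered by 0.58 (log2), 49.3% of 67 altered by 1 and 90.9% of 66 altered by 2. It made 3 false calls. The simulated noise was normal, independent between arrays and of the same spread in every group, and only probe sets with a mean of at least 5 were altered. The simulation therefore does not cover dim probe sets, uneven arrays or regions sharing a mouse.

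Named were every called gene, the next 12 on each side with 1 symbol and a mean of at least 5, triplicated and monosomic genes, and members of each list with the highest mean or largest moderated t. Members, lists and alternatives were chosen with earlier results of these data known. Alternatives were a replicate block, other priors, normalizations, filters and sets of arrays, array weights, other adjustments, and each replicate left out. Some genes are not analysed here.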

Additional observations from a re-analysis of the deposited data

Results flagged for a closer look

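In all, 3 contrasts between comparisons stood out because every Ts1Cje array lay on one side of the disomic arrays in the P30 cerebellum and on the other side in another region; none of these differences was tested by itself. *Eml3* was lower by -0.95 in the P30 cerebellum and higher by 0.292 in the P1 hippocampus. The called probe set with several symbols was higher by 0.92 in the P30 cerebellum and lower by -0.319 in the P15 hippocampus, which holds a disomic array that lay at the cerebellum's place, and by -0.143 in the P84 hippocampus, which holds a dim disomic array.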

How the results depend on the processing

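The 14 calls became 1 in a fit of the 24 cerebellum arrays alone and 1 in a fit of the 6 arrays alone, *Dnah11* both times, 50 (30 higher, 20 lower) without the 2 displaced and 3 dim arrays, and 262 (91 higher, 171 lower) with array quality weights. Leaving out 1 of the 6 arrays gave 2 to 17 calls, and 7 higher and 10 lower without disomic replicate 1. The calls against the other ages (0) became 1 without the displaced and dim arrays and 0 to 9 with 1 array left out, 9 of them without disomic replicate 1, all lower. The calls against the other regions (0) became 3 without the displaced and dim arrays and 0 to 1 with 1 array left out; the mouse as a random block (correlation 0.0856) gave 0. Other settings gave 14 to 19 calls: the replicate block 19, quantile normalization 16, and a trended and robust prior, the filter at a mean of 5, and adjustment over all 12 comparisons 15 each. The same replicate numbers correlated at 0.242, 0.320 and 0.0357 (deviations from the group means). Ts1Cje replicates 1 and 2 each correlated best with the disomic array of their own number. Ts1Cje replicate 3 correlated best with disomic replicate 1 (0.0558), so a pairing by number was neither shown nor excluded. The replicate block kept all 14 calls and left both differences of effects at 0. The median of the triplicated genes (0.634) was 0.333 with no filter and 0.529 to 0.722 with 1 array left out. No called difference changed sign under any of these settings. Repeats of the single calls under these settings stayed past the criteria 148 times and missed them 73 times, with quantile normalization losing *Vps26c*. Fewer arrays in the fit leave fewer degrees of freedom for the spread, and what else lowers or raises the count was not tested. With 3 mice per group, a difference near 0.58 seldom passes, so a gene that was not called is not shown to be equal between genotypes. Signals near the array medians of 3.23 to 3.28 carry little information on size.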
